A study of Mus musculus with 10 samples.

Results

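The transcripts of 10 prohormone processing genes were followed across sorted mouse intestinal cells: the convertases Pcsk1, Pcsk2, Furin, Pcsk4, Pcsk5 and Pcsk6, the carboxypeptidases Cpe and Cpd, the amidating enzyme Pam and the glutaminyl cyclase Qpct. They were chosen by name from the deposited table, 10 of its 54532 genes, and all 10 were among the 15703 genes with enough reads to be tested. Levels are cpm, read counts scaled to a common library size with edgeR's TMM factors, and a gene was called at a Benjamini-Hochberg adjusted p under 0.01 in edgeR's quasi-likelihood test over all 15703 genes.

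Peptide hormones are made as longer precursors that enter the regulated secretory pathway and are cut inside dense-core granules. The convertases PC1/3 and PC2, encoded by Pcsk1 and Pcsk2, cut at pairs of basic residues, carboxypeptidase E trims the basic residues left behind, and PAM turns a C-terminal glycine into an amide. Furin and its relatives do similar work in the constitutive pathway of most cells, and glutaminyl cyclase closes an N-terminal glutamine into pyroglutamate. In the gut, enteroendocrine cells use this pathway to make GLP-1 from proglucagon, and also CCK, secretin, PYY and neurotensin.

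The small intestinal epithelium of 5 litter-matched Gucy2c-GFP mice was sorted by green fluorescence at 10 weeks of age. The mice were CD1/ICR animals that carry a GENSAT transgene in which the promoter of Gucy2c, the gene for the guanylate cyclase C receptor, drives GFP, so that both groups carried the reporter and differed in its brightness. Brightly fluorescent cells formed the GUCY2Chi group and cells of medium brightness the GUCY2Cmed group, which the labels call both Medium and Lo. Each library came from 20000 cells, with 5 libraries per group numbered 2, 7, 12, 14 and 15, and libraries of the same number were taken as coming from the same mouse. The question of the comparison was how the transcripts of the GUCY2Chi cells, which the study calls neuropod cells, differ from those of GUCY2Cmed cells.

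Total gene counts per library ranged from 13090212 to 13520800 for GUCY2Chi and from 10903958 to 15307932 for GUCY2Cmed cells. Gucy2c itself was 1322 ± 526 cpm in GUCY2Chi and 404 ± 64.7 cpm in GUCY2Cmed cells (SD, n = 5 each), with a log2 fold change of 1.71 ± 0.32 (SE, adjusted p = 0.0019 by edgeR). The 14 enteroendocrine markers summed to 1212 to 4382 cpm in GUCY2Chi and 13.8 to 74.6 cpm in GUCY2Cmed libraries, and 12 of the 14 were called higher. The 15 enterocyte markers summed to 66328 to 83301 cpm in GUCY2Cmed libraries. In GUCY2Chi libraries they summed to 3683 to 5267 cpm in mice 2, 7 and 14, but to 34799 cpm in mouse 12 and 35529 cpm in mouse 15, which stand apart. The 12 forebrain neuron markers, for cells foreign to the gut, summed to 29.4 to 1402 cpm in GUCY2Chi and 13.5 to 768 cpm in GUCY2Cmed libraries, with none of the 12 at 0 throughout a group and none called. That sum was under 32 cpm in GUCY2Chi mice 2 and 14 and in GUCY2Cmed mouse 7. Paneth cell markers summed to 6163 to 45619 cpm in GUCY2Chi and 6519 to 15331 cpm in GUCY2Cmed libraries. Goblet cell markers summed to 3060 to 23486 and 4922 to 13118 cpm. GUCY2Chi mouse 2 had the most of both, and GUCY2Chi mouse 14 had 26810 cpm of Paneth markers. No tested marker of these lists was called. Positions are on GRCm38, since the table places all 10 genes where that build does and only 2 of 10 where NCBIM37 does, although the labels name mm9.

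Promoter sequence is shown for Pcsk1 and Pcsk2, the granule convertases that behaved differently, and for Pam. Each run holds bases before the start that RefSeq gives on GRCm38.p6, 5′ to 3′ on the gene's strand, without bases that the deposited table counts as gene. Capitals mark TGACG on either strand, the core of the cAMP response element. Cpe, Qpct and Pcsk4 had no entry among the RefSeq promoters used, and 7 of 10 genes matched.
Pcsk1, chr13:75089607-75089825, plus strand: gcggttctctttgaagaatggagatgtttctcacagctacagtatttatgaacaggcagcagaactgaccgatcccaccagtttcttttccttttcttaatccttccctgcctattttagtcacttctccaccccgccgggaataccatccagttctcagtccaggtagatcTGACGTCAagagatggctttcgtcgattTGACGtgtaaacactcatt
Pcsk2, chr2:143545883-143546132, plus strand: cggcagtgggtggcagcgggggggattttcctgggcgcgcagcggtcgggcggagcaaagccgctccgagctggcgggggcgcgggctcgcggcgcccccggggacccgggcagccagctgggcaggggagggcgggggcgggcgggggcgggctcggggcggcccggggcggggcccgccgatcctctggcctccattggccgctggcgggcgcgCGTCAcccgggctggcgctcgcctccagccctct
Pam, chr1:98095647-98095896, minus strand: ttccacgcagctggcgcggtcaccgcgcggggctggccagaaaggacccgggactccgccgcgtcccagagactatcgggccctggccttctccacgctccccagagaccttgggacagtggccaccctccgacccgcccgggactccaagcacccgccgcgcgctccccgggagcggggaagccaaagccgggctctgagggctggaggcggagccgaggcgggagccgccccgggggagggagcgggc

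The Pcsk1 window held the full palindrome TGACGTCA, whose first base lies 78 bases before the RefSeq start and which makes 2 overlapping TGACG matches. It held a further TGACG at 50 bases. Of 32851 RefSeq promoters of the same 250-base length, 1.55% held TGACGTCA and 17.8% held TGACG on either strand. The Pcsk2 window held TGACG on the opposite strand at 34 bases, and the Pam window held none. Of the 9 RefSeq windows of the 7 matched genes, 3 held TGACG: those of Pcsk1 and Pcsk2 and a window of Furin, at 126 bases. The basic helix-loop-helix motif CANNTG, which does not overlap these, occurred at 135 bases in Pcsk2 and at 243 bases in the Pam window shown. It was absent from the other RefSeq window of Pam and from the Pcsk1 window, and was present in 66.2% of all promoters. GC content over the 250 bases was 46.8% for Pcsk1, 82.4% for Pcsk2 and 75.6% for Pam (76.4% in its other window), against a median of 52.4% over all promoters. These matches describe letters in a window and say nothing of binding.

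Of the 10 processing enzymes, 4 were called higher in GUCY2Chi cells (Pcsk1, Cpe, Pam and Qpct) and 0 lower. Over all genes tested, 13.9% were called higher and 8.79% lower, 22.7% in all. At an unadjusted p under 0.05, edgeR gave 5 of the 10 higher and 1 lower. The shares of all genes at that looser threshold were not computed, so these counts have no background here. At the adjusted threshold, limma-voom and DESeq2 each called 1 of the 10 lower, beside 1797 and 2235 lower among all genes. The 4 called genes each had a log2 fold change over 4, which 4.36% of all genes tested reached with a call. The libraries of the groups did not overlap for these 4, higher in GUCY2Chi cells, and for Pcsk5, lower, against 16.7% and 13.2% of all genes tested. The median log2 fold change was 0.94 over the 10 enzymes and 0.09 over all genes. In bulk libraries, fewer cells of a type and less RNA per cell cannot be told apart.

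**Figure D1:**
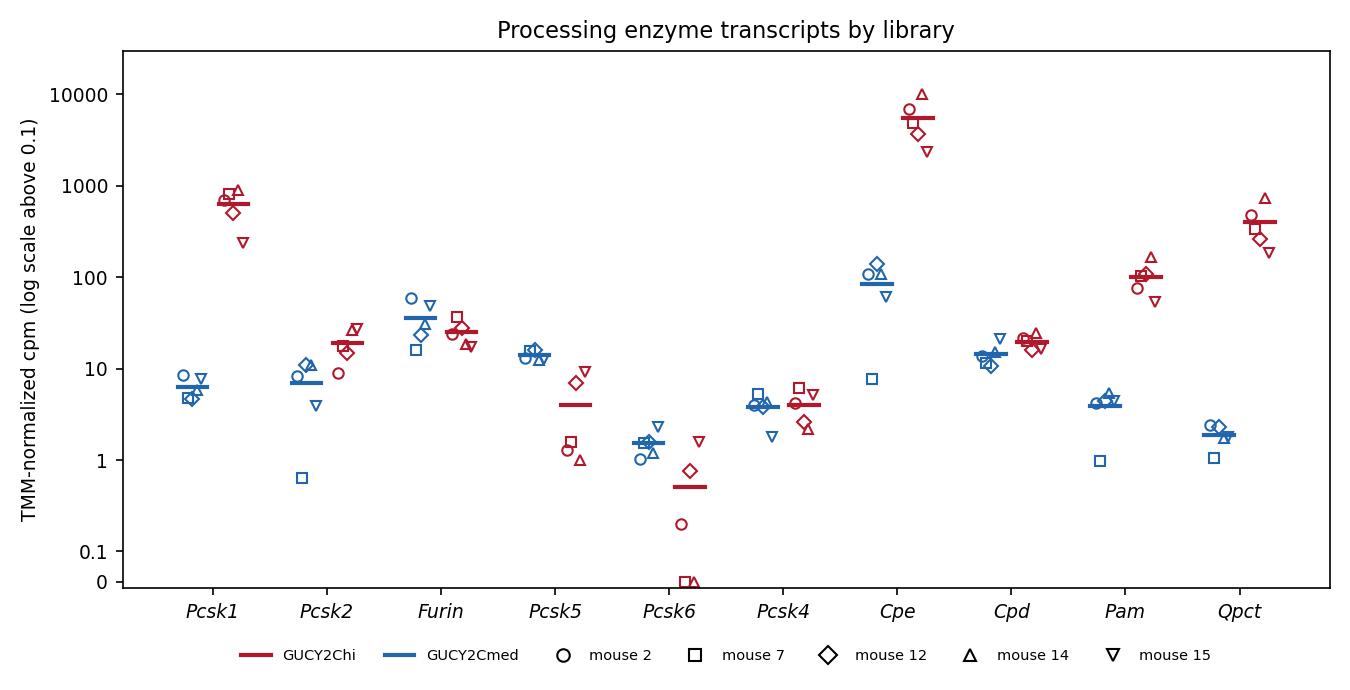
TMM-normalized cpm (log scale above 0.1) of the 10 processing enzymes in each of 5 GUCY2Chi (red) and 5 GUCY2Cmed (blue) libraries, with symbols for the mouse number and bars for the group mean. Pcsk1, Cpe, Pam and Qpct lie apart in the groups, from a lowest GUCY2Chi library of 236.8, 2337, 53.5 and 182.2 cpm down to a highest GUCY2Cmed library of 8.43, 138.4, 5.41 and 2.43 cpm.

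Pcsk1 (ENSMUSG00000021587, chr13:75089826-75134861, plus strand) encodes PC1/3, the convertase that releases GLP-1 from proglucagon. Its level in GUCY2Chi cells of mice 2, 7, 12, 14 and 15 was 704.1, 820.1, 506.4, 904.1 and 236.8 cpm. In GUCY2Cmed cells of the same numbers it was 8.43, 4.74, 4.61, 5.78 and 7.70 cpm. Mouse 15 was lowest among GUCY2Chi libraries, and even there Pcsk1 was 30.8 times its level in the same mouse's GUCY2Cmed library, the smallest of 5 ratios that reached 173.1 in mouse 7. The group means were 634.3 ± 267.6 and 6.25 ± 1.74 cpm (SD, n = 5 each), a log2 fold change of 6.66 ± 0.43 (SE, adjusted p = 3.76e-06 by edgeR).

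Pcsk2 (ENSMUSG00000027419, chr2:143546156-143816285, plus strand) encodes PC2, the convertase that makes glucagon in pancreatic alpha cells and processes neuropeptides in the brain. It was 8.94, 17.6, 14.99, 26.7 and 26.9 cpm in GUCY2Chi and 8.33, 0.642, 11.02, 11.04 and 3.85 cpm in GUCY2Cmed cells. It was higher in GUCY2Chi cells in 5 of 5 mice, but the groups overlapped and the ratio within a mouse ran from 1.07 in mouse 2 to 27.4 in mouse 7. The log2 fold change of 1.45 ± 0.58 (SE) did not pass the threshold (adjusted p = 0.067 by edgeR, and between 0.033 and 0.19 over 20 alternatives). Forebrain neuron markers moved with it among GUCY2Cmed libraries, where Pcsk2 amounted to 1.35 to 4.76% of their sum. In GUCY2Chi cells it amounted to 1.92 to 3.72% in mice 7, 12 and 15, but to 30.4% and 83.8% in mice 2 and 14, the libraries with the least forebrain signal, and the part of these transcripts in the result was not tested. Pcsk2os1 and Pcsk2os2, genes on the opposite strand within Pcsk2, had 16 to 56 and 0 to 55 counts in GUCY2Chi libraries and at most 6 and 0 in GUCY2Cmed libraries, beside 133 to 428 counts of Pcsk2 in GUCY2Chi libraries. The sources used here do not say whether counting used strand, so reads of these overlapping genes may be mixed.

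Furin (ENSMUSG00000030530, chr7:80388585-80405436, minus strand), the convertase of the trans-Golgi network found in most cells, was 24.0, 36.4, 28.0, 18.7 and 17.3 cpm in GUCY2Chi and 58.7, 15.9, 23.6, 30.6 and 48.8 cpm in GUCY2Cmed cells. The groups overlapped, with GUCY2Cmed mice 2 and 15 the highest. Its log2 fold change was -0.51 ± 0.35 (SE, adjusted p = 0.27 by edgeR).

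Pcsk5 (ENSMUSG00000024713, chr19:17432832-17837632, minus strand) encodes PC5/6, a convertase with a secreted form and a membrane-bound form. Its level was 1.28, 1.57, 7.04, 1.002 and 9.07 cpm in GUCY2Chi and 13.2, 15.4, 16.1, 12.5 and 12.6 cpm in GUCY2Cmed cells. All 5 GUCY2Chi libraries lay under all 5 GUCY2Cmed libraries, and the 2 highest, of mice 12 and 15, were those with the most enterocyte transcripts. The log2 fold change was -1.80 ± 0.57 (SE) and did not pass the threshold (adjusted p = 0.027 by edgeR). It passed with limma-voom (-2.37, adjusted p = 0.0036), with DESeq2 (-1.77, adjusted p = 0.0077), without GUCY2Chi mouse 15 (-2.33, adjusted p = 0.0063 by edgeR) and without GUCY2Chi mice 12 and 15 (-3.40, adjusted p = 1.02e-05 by edgeR). The fit without GUCY2Chi mice 12 and 15 left out the 2 libraries of that group with the highest Pcsk5 level. Its result is therefore not independent of that level. Over all 21 alternatives the adjusted p ran from 1.02e-05 to 0.076. As a percent of the summed enterocyte markers, Pcsk5 was 0.019 to 0.043% in GUCY2Chi and 0.0152 to 0.0232% in GUCY2Cmed libraries, ranges that overlap.

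Pcsk6 (ENSMUSG00000030513, chr7:65861734-66050386, plus strand), which encodes the secreted convertase PACE4, had the lowest level per gene length in both groups. It was 0.202, 0, 0.757, 0 and 1.57 cpm in GUCY2Chi and 1.03, 1.53, 1.58, 1.20 and 2.31 cpm in GUCY2Cmed cells. The 2 libraries at 0 allow up to 0.181 cpm in mouse 7 and 0.231 cpm in mouse 14, at 3 counts, a floor that covers counting error only. GUCY2Chi cells were lower in 5 of 5 mice, but the groups overlapped through mouse 15, and the log2 fold change of -1.57 ± 0.91 (SE) did not pass the threshold (adjusted p = 0.20 by edgeR). Without GUCY2Chi mice 12 and 15 it did (adjusted p = 0.0035 by edgeR, and up to 0.37 over 20 alternatives), with 3 counts in all left in that group. Those 2 libraries had the highest Pcsk6 level of the group.

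Pcsk4 (ENSMUSG00000020131, chr10:80321283-80329498, minus strand) encodes a convertase known from germ cells. It was 2.16 to 6.09 cpm in GUCY2Chi and 1.80 to 5.22 cpm in GUCY2Cmed cells, and the groups overlapped. Its log2 fold change of 0.07 ± 0.37 (SE, adjusted p = 0.92 by edgeR) changed sign in 3 alternatives.

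The make-up of convertase transcripts was set out per gene length, as cpm per kb of the gene length in the deposited table. Pcsk1 made 83.6 to 96.3% of the summed level of the 6 convertases in GUCY2Chi libraries and 10.1 to 14.4% in GUCY2Cmed libraries. Furin made 1.21 to 3.73% and 27.2 to 55.5%, and Pcsk5 0.064 to 1.92% and 11.8 to 25.9%. Pcsk2 made 0.863 to 6.74% and 1.28 to 17.2%, ranges that overlap.

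**Figure D2:**
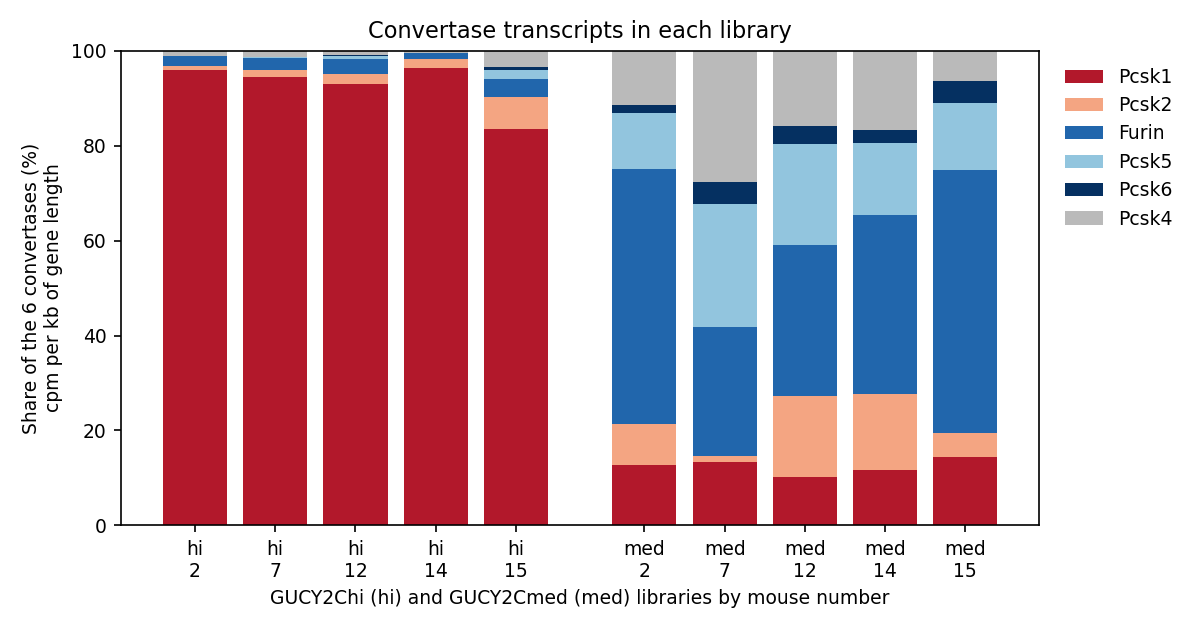
Share of each of 6 convertases (%, stacked, from cpm per kb of gene length) in the 5 GUCY2Chi (hi) and 5 GUCY2Cmed (med) libraries, by mouse number. Pcsk1 fills between 83.6 and 96.3% of each GUCY2Chi bar and between 10.1 and 14.4% of each GUCY2Cmed bar, where Furin, Pcsk5 and Pcsk4 take most of the rest.

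Ratios between enzymes within a library do not depend on the normalization. The length-scaled ratio of Pcsk1 to Pcsk2 was 110.7, 65.6, 47.6, 47.8 and 12.4 in GUCY2Chi cells of mice 2, 7, 12, 14 and 15 and 1.43, 9.88, 0.593, 0.742 and 2.81 in GUCY2Cmed cells. The groups did not overlap, although GUCY2Chi mouse 15 came near GUCY2Cmed mouse 7, where Pcsk2 had only 8 counts. In GUCY2Chi cells this ratio was highest in mouse 2 and lowest in mouse 15, with forebrain sums of 29.4 and 1402 cpm. Mouse 14, at 31.8 cpm, did not follow this order. Among GUCY2Cmed libraries mouse 7 had the highest ratio and the lowest forebrain sum (13.5 cpm). The ratio of Pcsk1 to Furin was 22.4 to 79.2 in GUCY2Chi and 0.236 to 0.491 in GUCY2Cmed cells. The ratio of Cpe to Cpd was 456.7 to 1310 in GUCY2Chi and 2.17 to 40.8 in GUCY2Cmed cells, lowest in GUCY2Cmed mouse 7. The group means differed by 4.70, 6.97 and 5.89 on the log2 scale, each with p = 0.0079 in an exact two-sided permutation test (0.0079 after adjustment over the 3 ratios), the smallest p that 5 against 5 libraries allow. Taken within mice, the exact sign-flip test gave p = 0.0625 for each ratio, the smallest that 5 pairs allow. The part of forebrain transcripts in the ratios was not tested.

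Cpe (ENSMUSG00000037852, chr8:64592542-64693054, minus strand) encodes carboxypeptidase E, the exopeptidase of dense-core granules. It was 6993, 4813, 3669, 10006.3 and 2337 cpm in GUCY2Chi and 109.4, 7.79, 138.4, 108.8 and 61.5 cpm in GUCY2Cmed cells. GUCY2Cmed mouse 7 was lowest and the groups did not overlap, with ratios within a mouse from 26.5 in mouse 12 to 618.1 in mouse 7. The means were 5564 ± 3014 and 85.2 ± 51.3 cpm (SD, n = 5 each), a log2 fold change of 6.03 ± 0.76 (SE, adjusted p = 0.00018 by edgeR). Among GUCY2Cmed libraries Cpe was 18.0 to 21.6% of the forebrain sum in mice 2, 12, 14 and 15 and 57.7% in mouse 7. In GUCY2Chi libraries it was 166.7 to 31431%, and the part of forebrain transcripts in the result was not tested. GUCY2Cmed mouse 7 was also the library with the lowest sum of forebrain neuron markers in its group (13.5 cpm). Its enteroendocrine sum was the lowest over all 14 markers (13.8 cpm), but without Cplx2 and Etv1 it was 12.8 cpm, above mouse 2 (9.92 cpm) and mouse 12 (10.1 cpm).

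Cpd (ENSMUSG00000020841, chr11:76778424-76847018, minus strand) encodes carboxypeptidase D, which trims peptides in the trans-Golgi network of many cell types. It was 21.8, 19.8, 15.9, 24.4 and 16.3 cpm in GUCY2Chi and 13.8, 11.5, 10.8, 15.2 and 21.0 cpm in GUCY2Cmed cells. GUCY2Chi cells were higher in 4 of 5 mice, with mouse 15 the exception, and the log2 fold change of 0.44 ± 0.22 (SE) did not pass the threshold (adjusted p = 0.13 by edgeR).

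Pam (ENSMUSG00000026335, chr1:97795114-98095646, minus strand) encodes the enzyme that amidates CCK, secretin, PYY and other gut peptides. It was 75.7, 104.1, 107.4, 164.3 and 53.5 cpm in GUCY2Chi and 4.21, 0.963, 4.39, 5.41 and 4.45 cpm in GUCY2Cmed cells. The groups did not overlap, and mouse 7 gave the lowest GUCY2Cmed library by a wide gap. The means were 101.0 ± 41.7 and 3.89 ± 1.70 cpm (SD, n = 5 each), a log2 fold change of 4.70 ± 0.45 (SE, adjusted p = 2.91e-05 by edgeR). B230216N24Rik, a gene of the same strand within the span of Pam, had 86 to 171 counts in GUCY2Chi and 6 to 30 in GUCY2Cmed libraries, beside 850 to 2131 and 12 to 72 counts of Pam, and how the counting shared reads between overlapping genes is not given in the sources used here.

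Qpct (ENSMUSG00000024084, chr17:79051906-79090378, plus strand) encodes the secreted glutaminyl cyclase, which forms the pyroglutamate of peptides such as neurotensin and gastrin. It was 476.2, 337.5, 258.7, 733.8 and 182.2 cpm in GUCY2Chi and 2.43, 1.04, 2.31, 1.73 and 1.80 cpm in GUCY2Cmed cells. Every GUCY2Chi library was at least 101.4 times the GUCY2Cmed library of its mouse, and mouse 14 reached 424.9 times. The means were 397.7 ± 217.1 and 1.86 ± 0.55 cpm (SD, n = 5 each). Its log2 fold change of 7.73 ± 0.48 (SE, adjusted p = 3.25e-06 by edgeR) was the largest among the 10 enzymes.

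The 4 called enzymes stayed called in each of 21 alternatives, among them the mouse as replicate block, each library left out in turn and the fits without GUCY2Chi mice 12 and 15. They also stayed called without the 2 libraries of most forebrain neuron signal in each group (GUCY2Chi 7 and 15, GUCY2Cmed 2 and 12), an alternative chosen after seeing the data. Over the alternatives the log2 fold change ran from 6.51 to 7.05 for Pcsk1, from 5.71 to 6.85 for Cpe, from 4.45 to 4.99 for Pam and from 7.40 to 8.31 for Qpct. The largest adjusted p was 0.0070, for Cpe. The alternative of an adjusted p under 0.05 used the main fit, so no call could be lost there.

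**Figure D3:**
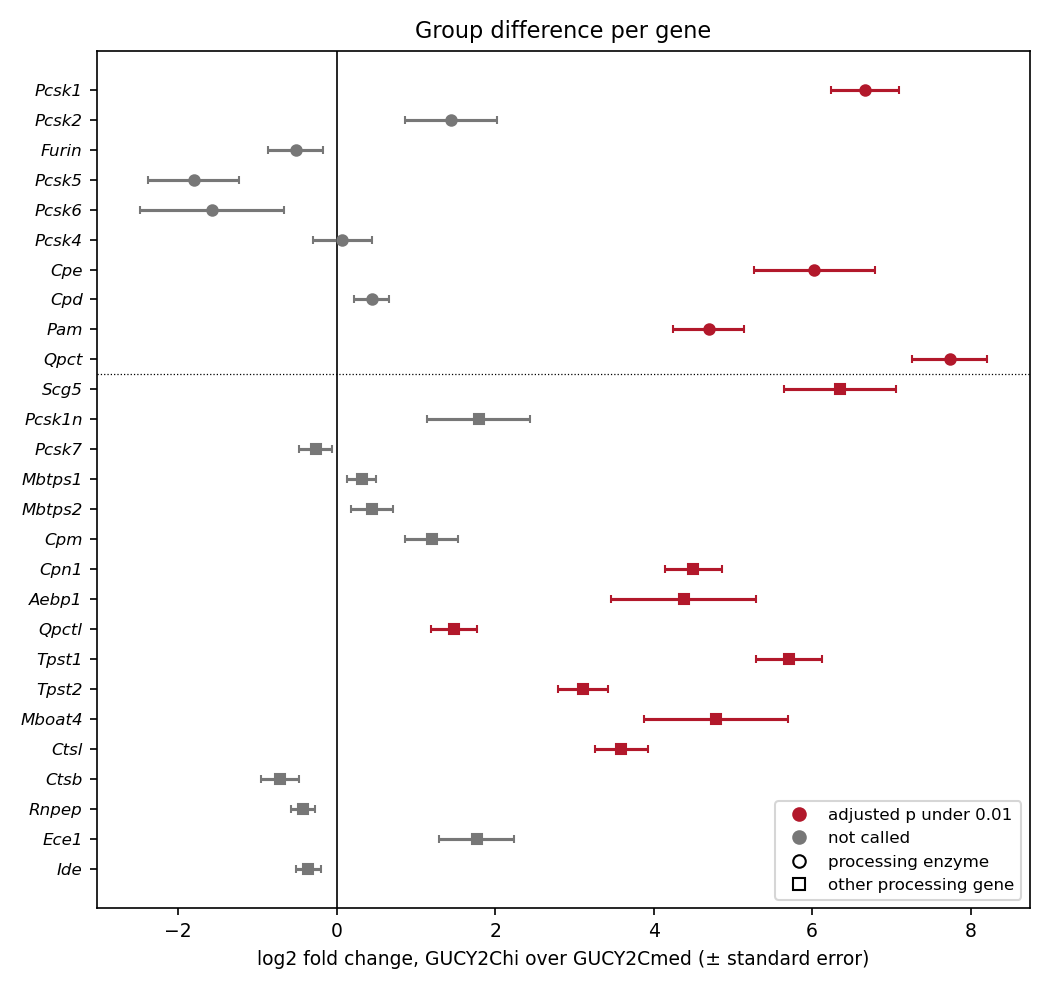
log2 fold change of GUCY2Chi over GUCY2Cmed cells (points, with bars for ± 1 SE from edgeR, 5 libraries per group) of the 10 processing enzymes (circles) and 17 other tested genes of peptide processing (squares), red where the adjusted p was under 0.01. Pcsk1, Cpe, Pam and Qpct lie between 4.70 and 7.73, Pcsk5 at -1.80 and Pcsk7, Mbtps1 and Mbtps2 between -0.26 and 0.45. Aebp1, among the red squares, was tested only through GUCY2Chi libraries.

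Within the GUCY2Chi group, mouse 14 had the highest level of Pcsk1, Cpe, Pam and Qpct and mouse 15 the lowest, the order of these mice in the enteroendocrine marker sum. As a percent of that sum, Pcsk1 was 19.5 to 27.2% in GUCY2Chi libraries, Qpct 11.2 to 16.8% and Pam 2.34 to 5.43%. Cpe was 159.4 to 228.4%. In GUCY2Cmed libraries these percentages turned on 2 of the 14 markers, Cplx2 and Etv1, which made 56.5 to 86.5% of the sum in mice 2, 12, 14 and 15 but 6.98% in mouse 7. Over all 14 markers, Pcsk1 was 6.18 to 34.3%, Cpe 56.4 to 185.4%, Pam 5.89 to 12.1% and Qpct 2.52 to 7.56% of the sum in GUCY2Cmed libraries.

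Over the other 12 markers, a split made after their values were seen, the sum was 1039 to 4119 cpm in GUCY2Chi and 9.92 to 19.1 cpm in GUCY2Cmed libraries. Pcsk1 was then 21.9 to 29.5% of the sum in GUCY2Chi and 30.3 to 84.9% in GUCY2Cmed libraries, and Pam 2.49 to 5.83% and 7.50 to 43.6%. Cpe was 172.9 to 242.9% and 60.6 to 1372%, and Qpct 12.1 to 17.8% and 8.13 to 24.5%, ranges that overlap. Pam was a larger percent in every GUCY2Cmed library under both sums, whereas the order of the groups for Pcsk1 and Qpct depended on which markers were summed. The part of the share of enteroendocrine cells in these results was not tested.

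**Figure D4:**
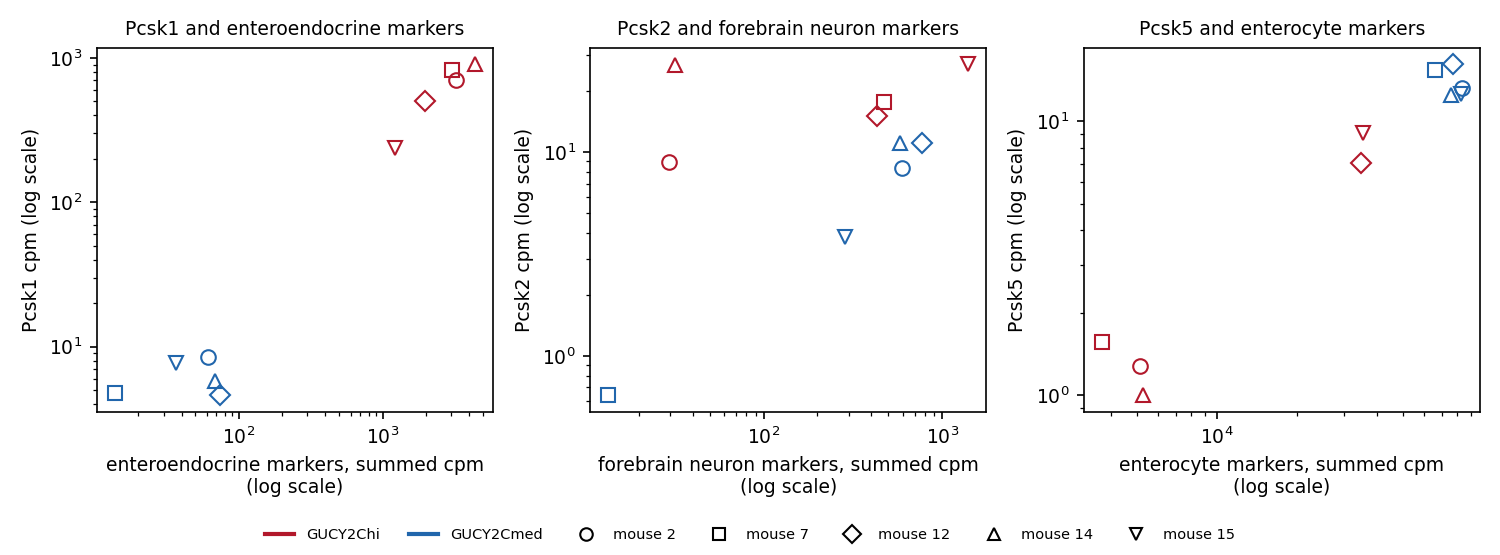
Level (cpm, log scale) of Pcsk1, Pcsk2 and Pcsk5 against the summed cpm (log scale) of enteroendocrine, forebrain neuron and enterocyte markers, 1 point per library, with colours for the groups and symbols for the mouse number. Pcsk1 is high where enteroendocrine markers are high, between 1212 and 4382 cpm; Pcsk2 reaches 26.7 cpm in GUCY2Chi mouse 14 at a forebrain sum of 31.8 cpm; and Pcsk5 is highest among GUCY2Chi libraries in mice 12 and 15.

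Compared per gene length, the level in GUCY2Chi cells was 2132 ± 1155 cpm per kb for Cpe, 156.6 ± 85.5 for Qpct, 113.2 ± 47.8 for Pcsk1 and 8.49 ± 3.51 for Pam (SD, n = 5). Cpe lay above all libraries of the next gene, whereas Qpct and Pcsk1 overlapped and exchanged places in the deposited FPKM values, which imply a shorter length for Pam and the other genes (13.6 to 66.6% of the table's). Pcsk1 lay above every library of Pam, and Pam above every library of Furin. Furin (2.71), Pcsk2 (2.41), Cpd (2.36), Pcsk4 (1.36), Pcsk5 (0.427) and Pcsk6 (0.0976 cpm per kb) followed, and each overlapped the next. Pcsk2 and Cpd also exchanged places by FPKM in GUCY2Chi cells, with 7.39 FPKM for Cpd and 5.01 FPKM for Pcsk2. In GUCY2Cmed cells the mean of Cpe again led with 32.6 ± 19.7 cpm per kb. Its lowest library, of mouse 7 (2.99 cpm per kb), lay within the range of Furin (1.73 to 6.40). Cpe was followed by Furin (3.87), Cpd (1.74), Pcsk5 (1.49), Pcsk4 (1.30) and Pcsk1 (1.12 cpm per kb). The libraries of each overlapped those of the next. Pcsk2 (0.882), Qpct (0.733), Pam (0.327) and Pcsk6 (0.295 cpm per kb) came last, and these also overlapped from neighbour to neighbour. By the deposited FPKM values the GUCY2Cmed order differed, with Pcsk1 (2.46 FPKM) and Pam (2.17 FPKM) next after Cpd and above Pcsk5, Pcsk4, Pcsk2 and Qpct.

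The other genes of the pathway were taken as lists of helpers, other convertases, other carboxypeptidases and other modifying enzymes, 23 genes of which 17 were tested. Of these 17, 8 were called higher and 0 lower (7 of 16 without Aebp1, which met the minimum only through GUCY2Chi libraries). Over all genes tested, the shares were 13.9% and 8.79%. The median log2 fold change was 1.77 over the 17 genes, against 0.09 over all genes.

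Scg5 encodes 7B2, the chaperone that PC2 needs to mature. It was 1551, 1323, 1363, 2250.2 and 656.7 cpm in GUCY2Chi and 18.3, 1.61, 29.2, 25.6 and 12.8 cpm in GUCY2Cmed cells, a log2 fold change of 6.35 ± 0.71 (SE, adjusted p = 7.83e-05 by edgeR). The groups did not overlap for this partner of PC2, whereas those of Pcsk2 did. Pcsk1n encodes proSAAS, an inhibitor of PC1/3. It was 225.9 to 341.1 cpm in GUCY2Chi and 102.1, 2.97, 147.4, 107.2 and 50.8 cpm in GUCY2Cmed cells. Although these libraries did not overlap either, its log2 fold change of 1.79 ± 0.66 (SE) did not pass the threshold (adjusted p = 0.048 by edgeR). Like Pcsk2 and Cpe, Scg5 and Pcsk1n are known to be expressed in brain neurons. Each was lowest in GUCY2Cmed mouse 7, where the forebrain sum was 13.5 cpm. Pam, Qpct and Furin were also the lowest of their group in that library, whereas Pcsk1, Pcsk4, Pcsk5, Pcsk6 and Cpd were not. The part of forebrain transcripts in the levels of Scg5 and Pcsk1n was not tested.

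In the list of other convertases, Pcsk7, Mbtps1 and Mbtps2 had log2 fold changes between -0.26 and 0.45. These did not pass the threshold (adjusted p between 0.1995 and 0.36 by edgeR). Mbtps2, though in that list, encodes a protease that is not a convertase. Of the other carboxypeptidases, 3 were tested. Cpn1, the catalytic subunit of the plasma enzyme that trims basic residues from kinins, was 89.3 ± 36.3 cpm in GUCY2Chi and 3.95 ± 1.13 cpm in GUCY2Cmed cells (SD, n = 5 each), a log2 fold change of 4.50 ± 0.36 (SE, adjusted p = 9.45e-06 by edgeR). Aebp1, named after its values were seen, was tested only through GUCY2Chi libraries, since no GUCY2Cmed library was over 0.5 cpm, and its call is not independent of that filter. It had 4 to 40 counts in GUCY2Chi and at most 2 in GUCY2Cmed libraries. Its GUCY2Chi mean of 1.52 ± 1.14 cpm (SD, n = 5) was 6.22 times a floor of 0.244 cpm, from 3 counts per library. In GUCY2Chi mice 12 and 15 it was only 0.303 and 0.315 cpm, near that floor, so the ratio of means does not hold for each library. Its call was lost without GUCY2Cmed mouse 15 (adjusted p = 0.0105 by edgeR), with limma-voom (adjusted p = 0.016) and with the mouse as replicate block in edgeR (adjusted p = 0.0104), but not with the block in limma-voom (adjusted p = 0.0059). It had no value without GUCY2Chi mouse 2, 7 or 14.

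Of 9 other modifying enzymes tested, 5 were called higher, against 13.9% of all genes tested. Tpst1 and Tpst2, the tyrosylprotein sulfotransferases that sulfate peptides such as CCK, had log2 fold changes of 5.70 ± 0.42 and 3.11 ± 0.31 (SE, adjusted p = 5.22e-06 and 3.92e-05 by edgeR). Tpst1 rose from 2.55 ± 1.04 to 133.1 ± 45.7 cpm and Tpst2 from 15.2 ± 1.94 to 131.1 ± 56.2 cpm (SD, n = 5 each). Ctsl, a cysteine protease of lysosomes that also cuts prohormones in granules, was 271.8 ± 99.1 against 22.5 ± 7.61 cpm (log2 fold change 3.59 ± 0.34). Qpctl, the Golgi relative of Qpct, was 17.7 ± 5.97 against 6.34 ± 1.99 cpm, a log2 fold change of 1.49 ± 0.29 (SE, adjusted p = 0.0026 by edgeR), whose call was lost without the 2 libraries of most forebrain signal per group (adjusted p = 0.016 by edgeR).

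Mboat4 encodes GOAT, the enzyme that acylates ghrelin. It was 6.12, 32.6, 1.44, 39.2 and 5.35 cpm in GUCY2Chi and 0.374, 0.321, 0.360, 0.601 and 1.37 cpm in GUCY2Cmed cells. The groups did not overlap, though GUCY2Chi mouse 12 came close to GUCY2Cmed mouse 15, and GUCY2Chi mice 7 and 14 stood above the rest. Its log2 fold change of 4.79 ± 0.91 (SE, adjusted p = 0.0022 by edgeR) lost the call with limma-voom (adjusted p = 0.044), with the mouse as replicate block in edgeR (adjusted p = 0.011) and without the 2 libraries of most forebrain signal per group (adjusted p = 0.042 by edgeR). With the block in limma-voom it was kept (adjusted p = 0.0039).

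Of 20 precursors and granins that are substrates of the pathway, 19 were tested, and 15 were called higher and 0 lower. Over all genes tested, the shares were 13.9% and 8.79%. The median log2 fold change of the substrates was 7.99. Gast and Insl5, which had no GUCY2Cmed library over the 0.5 cpm minimum, were tested only through GUCY2Chi libraries, and without them 14 of 17 were called higher.

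Of 9 listed peptidases that break down peptides, 1 was called higher and 3 lower, against 13.9% and 8.79% of all genes tested. Their median log2 fold change was -2.42. Dpp7, a lysosomal dipeptidyl peptidase, was 90.4 ± 50.2 against 24.6 ± 4.75 cpm (log2 fold change 1.88 ± 0.33, adjusted p = 0.0013 by edgeR). Dpp4, the brush border enzyme that inactivates GLP-1 and GIP, was 180.1, 193.1, 312.0, 285.4 and 357.3 cpm in GUCY2Chi and 869.3, 510.0, 514.8, 607.8 and 750.3 cpm in GUCY2Cmed cells. No library overlapped, and the log2 fold change was -1.29 ± 0.25 (SE, adjusted p = 0.0026 by edgeR). The call of Dpp4 was lost without GUCY2Cmed mouse 15 (adjusted p = 0.0109), with the mouse as replicate block (adjusted p = 0.0104) and without the 2 libraries of most forebrain signal per group (adjusted p = 0.026, all by edgeR). With the block in limma-voom it was kept (adjusted p = 0.0048).

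The aminopeptidases Anpep and Enpep had log2 fold changes of -2.65 ± 0.59 and -2.67 ± 0.68 (SE, adjusted p = 0.0050 and 0.0096 by edgeR). GUCY2Chi mice 12 and 15 had 333.5 and 236.7 cpm of Anpep, and the other GUCY2Chi libraries had 47.8 to 82.3 cpm, which is the pattern of the enterocyte sum. The call of Anpep held in 3 of 10 fits that left out 1 library (GUCY2Chi 12, GUCY2Chi 15 or GUCY2Cmed 7), and that of Enpep in 2 of 10 (GUCY2Chi 12 or GUCY2Chi 15), with adjusted p up to 0.018 and 0.028 by edgeR. Both calls were lost without the 2 libraries of most forebrain signal per group (adjusted p = 0.068 and 0.062 by edgeR). That of Enpep was also lost with RLE factors, without TMM and at 10 counts in every library (adjusted p = 0.0115, 0.0148 and 0.0124 by edgeR). Without GUCY2Chi mice 12 and 15, the highest of that group in both genes, the log2 fold changes were -3.93 and -4.60. The part of enterocyte transcripts in these results was not tested.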

How the data were processed

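RNA of 10 libraries, 5 GUCY2Chi and 5 GUCY2Cmed, was analysed in groups taken from the sample labels. The counts deposited by the authors are unnormalized integers that the sequencing provider made after STAR alignment of read pairs. The counting tool and its use of strand are not given in the sources used here. The FPKM values, as deposited, are counts scaled by the provider for gene length and library size, and were used only for the order of levels and as an alternative for ratios. Gene positions and lengths in bases are those of the deposited table. Another 10 columns of per-library values, the provider's own comparison and the authors' limma results (fold changes and p-values, made per the submitters' processing notes with limma 3.40.6 and edgeR 3.26.8) were not used.

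The main test was that of edgeR 4.0.16 in R 4.3.3 (TMM factors, quasi-likelihood test, no term for the mouse, adjusted p under 0.01), with limma 3.58.1 (voom) and DESeq2 1.42.0 as alternatives. Python 3.11.15 (scipy 1.17.1, numpy 2.4.6, pandas 2.3.3, matplotlib 3.10.9) served for tables and figures. The filter asked for over 0.5 cpm in 3 or more libraries. The biological coefficient of variation was 0.458, and the fits were tested on simulated data made from these libraries. There edgeR called 2, 20, 43 and 48 of 50 genes changed 2-, 4-, 16- and 64-fold. A gene that was not called may thus still differ by 2- to 4-fold. Ratios used 0.5 counts added to each gene and exact two-sided permutation tests over libraries at a p under 0.05. Floors are 3 counts per library and cover counting error only. Other alternatives were library size without TMM, RLE factors, a minimum of 10 counts throughout, no filter, an adjusted p under 0.05, the mouse number as replicate block, and libraries left out.

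The pairing of libraries comes from the design text, which has each mouse sorted into both groups; the deviations of same-numbered libraries correlated at -0.12, -0.25, 0.28, -0.13 and 0.08 for mice 2, 7, 12, 14 and 15. All 10 enzymes are named; of the other lists, the helpers and up to 6 called genes of largest change with at least 5 cpm on average per list. A result for 1 gene of these lists is not reported here, and the counts leave it out. The enzymes and lists were chosen with earlier results of these data known. Promoters are those of RefSeq on GRCm38.p6.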

Additional observations from a re-analysis of the deposited data

Results flagged for a closer look

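Pam in the GUCY2Cmed library of mouse 7 was 0.963 cpm (12 counts), against 4.21 to 5.41 cpm in the other 4 GUCY2Cmed libraries, a gap that passed Dixon's test at the 95% level. It was 1 of 26 groups of 5 libraries screened, and chance alone gives about 1 in 20. The same library was lowest in its group in Cpe, Pcsk2, Qpct and Furin, and in the sum of forebrain neuron markers (13.5 cpm), but not in the other 5 enzymes. Its sum of 14 enteroendocrine markers was lowest too (13.8 cpm), but not that without Cplx2 and Etv1 (12.8 cpm, against 9.92 cpm in mouse 2). Without it the log2 fold change of Pam stayed called, as it did without each of the other libraries (4.45 to 4.88).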

How the results depend on the processing

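The 4 enzymes called higher were called in every alternative, and the mouse as replicate block changed no call among the 10 enzymes. At an adjusted p under 0.05, a call of the main fit could not be lost. Enzymes called lower numbered 1 with limma-voom, with DESeq2 and at an adjusted p under 0.05, 2 without GUCY2Chi mice 12 and 15, and 0 to 1 with 1 library left out. Pcsk4 turned to -0.0823 without GUCY2Chi mouse 7, -0.0761 without GUCY2Cmed mouse 15 (0.2316 at most with 1 library left out) and -0.336 without the 2 libraries of most forebrain signal per group. Calls among the other 17 processing genes moved from 8 to 5 without those libraries, to 13 at an adjusted p under 0.05, and to between 7 and 10 with 1 library left out. Over all genes, 2186 were higher and 1381 lower; the replicate block in edgeR gave 1294 and 779, the forebrain alternative 863 and 111, and an adjusted p under 0.05 3367 and 2767. Genes called lower numbered 2235 with DESeq2, 2186 without GUCY2Chi mice 12 and 15, and 557 (with 2910 higher) without TMM, where the median log2 fold change of all genes was 0.39 against 0.09. Leaving out 1 library gave 1636 to 2534 higher and 512 to 1609 lower genes; the lower count fell to 758 or less without GUCY2Chi 2, 7 or 14 or GUCY2Cmed 2, 12, 14 or 15. The ratios Pcsk1 to Pcsk2, Pcsk1 to Furin and Cpe to Cpd, at 4.70, 6.97 and 5.89, had an exact p of 0.0625 in the replicate block, which allows no smaller p, and ranged over 4.30 to 5.32, 6.71 to 7.17 and 5.22 to 6.28 with 1 library left out. Pcsk2 and Pcsk6 had no value at a minimum of 10 counts in every library. The cause of these changes was not tested.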
